A study of Mus musculus with 21 samples.

Results

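A set of 10 receptors and related proteins with which myeloid cells recognise glycans, lipids and debris were followed in the mouse right lung once the left lung had been removed. The genes were 5 C-type lectin receptors (Clec4e, Clec4d, Clec4n, Clec5a and Clec7a), the secreted scavenger protein Cd5l, and 4 scavenger receptors (Marco, Msr1, Cd36 and Cd163). They were chosen by symbol in the annotation of the arrays, and together they are 10 of the 19938 genes measured. The group was put together with measured values of these arrays in view, and which values decided is not recorded. Differences of the 10 genes between day 0 or day 3 and any other condition are treated as used for that choice and are given as descriptions without a test. The tests of the 10 genes compare later days with sham or with each other, or compare regions of the lung over all arrays. Whether these comparisons too had a part in the choice is not known, so their p-values are not free of it.

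All animals were male C57BL/6 mice, and RNA was measured on 21 Affymetrix arrays. The 7 conditions were day 0 before surgery, days 3, 7, 14, 28 and 56 after left pneumonectomy, and day 56 after sham surgery. No age is given in the labels. Sham lungs were taken at day 56 only. Days 3, 7, 14 and 28 therefore differ from sham both in the operation and in time since surgery. The part of each in those differences was not tested. Each condition had 3 arrays, namely the medial lobe, the cardiac lobe and the whole right lung. Whether 1 condition's regions share animals or pools, and whether a whole lung includes the lobes measured, is not stated in the labels, so p-values measure only the spread between these samples. Values are log2 RMA levels, on which a step of 1 is a doubling, and levels of different genes are not compared because each probe set has its own response.

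C-type lectin receptors of myeloid cells bind sugars and lipids of microbes, and some also bind molecules released by dying cells. Clec4e (Mincle), Clec4d (a partner of Mincle), Clec4n (Dectin-2) and Clec5a signal through adaptor chains that carry tyrosine motifs (Fcer1g or Tyrobp), whereas Clec7a (Dectin-1, the receptor for beta-glucan) carries its own motif. Syk and Card9 lie downstream and lead to cytokines and chemokines. Scavenger receptors take up modified lipoproteins, particles, dying cells and haemoglobin. In the healthy lung Marco is known from alveolar macrophages and Cd36 is abundant in capillary endothelium as well as in macrophages.

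The tissue was checked against markers before the genes were described. The summed level of 9 lung epithelial genes lay between 15.31 and 15.77 (log2) on all 21 arrays, with Sftpc, the surfactant protein of alveolar type 2 cells, never below 13.18. Albumin, a liver gene, never exceeded 6.44. The summed level of 6 markers of other organs, albumin among them, reached 10.09 in the day 28 pneumonectomy whole lung. On every other array that sum was at most 8.97. The pan-leukocyte and macrophage sum was 14.17 to 14.68. Array medians ran from 5.98 to 6.18 over all probe sets. Arrays that stood apart were those of the day 7 cardiac lobe, whose interquartile range of 3.55 was the lowest of its region, and the day 56 pneumonectomy whole lung, at 3.39. The first of them carries several of the highest values below, so these values are given with and without it.

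Clec4e and Clec4d are neighbouring genes on chromosome 6, with Clec4n next in the row, and they had the most similar time courses of the lectins. The 250 bases before their RefSeq transcription starts (GRCm38.p6) are printed because the pair moved together, with the core motif of the myeloid factor PU.1 (GAGGAA, or TTCCTC on the other strand) and the C/EBP motif TTGCNNAA in capitals. The Clec4e window is chr6:123289872-123290121 on the minus strand and that of Clec4d is chr6:123261857-123262106 on the plus strand.
Clec4e: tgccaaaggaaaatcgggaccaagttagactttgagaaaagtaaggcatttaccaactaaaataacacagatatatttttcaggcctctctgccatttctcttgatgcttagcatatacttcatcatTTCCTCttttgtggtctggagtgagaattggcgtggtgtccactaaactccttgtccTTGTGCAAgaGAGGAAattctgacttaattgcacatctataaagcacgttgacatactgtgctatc
Clec4d: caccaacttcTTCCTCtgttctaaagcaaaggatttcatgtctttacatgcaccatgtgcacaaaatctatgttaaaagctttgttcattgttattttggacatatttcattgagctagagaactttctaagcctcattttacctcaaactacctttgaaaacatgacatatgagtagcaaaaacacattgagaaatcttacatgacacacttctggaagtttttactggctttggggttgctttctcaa
In the Clec4e window the PU.1 letters stand at -123 and -56 from the start, and a C/EBP match stands at -66. Clec4d has PU.1 letters at -240, and further matches at 8 and 40 lie beyond the printed window. Over windows of 300 bases that reach 50 bases past the start, 28.3% of 32851 RefSeq promoters hold the PU.1 letters, 10.8% the C/EBP motif and 7.81% the AP-1 motif TGANTCA, on either strand. Of the 8 genes of the group with a promoter in the table, 6 hold the PU.1 letters, 1 holds the C/EBP motif (Clec4e) and 0 hold the AP-1 motif. A match is a description of the letters, not of a bound site.

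Clec4e was highest at day 3 in all regions. At day 0 its level was 6.12 in the medial lobe, 6.13 in the cardiac lobe and 5.57 in the whole lung, and at day 3 it was 8.17, 7.71 and 10.56. These groups did not overlap, and the lowest day 3 array lay above every array of the other 6 conditions, of which the highest was the day 14 cardiac lobe at 7.58. The fitted difference was 2.88 ± 0.59 (SE, n = 3 arrays per condition), or 7.34-fold. The whole lung contributed most, with a 31.7-fold difference against 4.15-fold in the medial and 3.01-fold in the cardiac lobe, and without that array the fitted difference was 1.81 (3.51-fold). By day 7 the levels were 6.35, 6.46 and 6.71. The sham lungs at day 56 lay at 6.66, 6.76 and 7.01, above day 0 and above the day 56 pneumonectomy lungs (6.22, 6.29 and 5.33) in all regions.

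Clec4d followed a similar course with a broader tail in the cardiac lobe. Its day 0 levels were 5.52 in the medial lobe, 5.37 in the cardiac lobe and 5.28 in the whole lung, and its day 3 levels were 7.67, 6.96 and 9.21. The groups did not overlap, and the fitted difference was 2.56 ± 0.50 (SE), or 5.89-fold, and 1.90 without the day 3 whole lung. In the cardiac lobe the level was 6.90 at day 7, 7.37 at day 14 and 6.75 at day 28, so that day 14 and not day 3 was the highest there. In the medial lobe it was 5.39 at day 7 and 6.54 at day 14, and in the whole lung it declined to 6.19 and 5.77. Sham lungs again lay above day 0, at 6.14, 6.05 and 6.89.

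Over the 21 arrays, with each region's mean removed, Clec4e and Clec4d correlated at r = 0.92, and at r = 0.75 over the 18 arrays left without day 3. These correlations are descriptions, because the 2 genes share every array and tissue piece. The other genes closest to Clec4e were Cd300ld and Cd300lb, both receptors of the CD300 family of myeloid cells, and Lpcat2 (r = 0.94, 0.93 and 0.92 over 21 arrays). For Clec4d they were Cd300ld, Dhrs9 and Cd300lb (each r = 0.92).

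**Figure D1:**
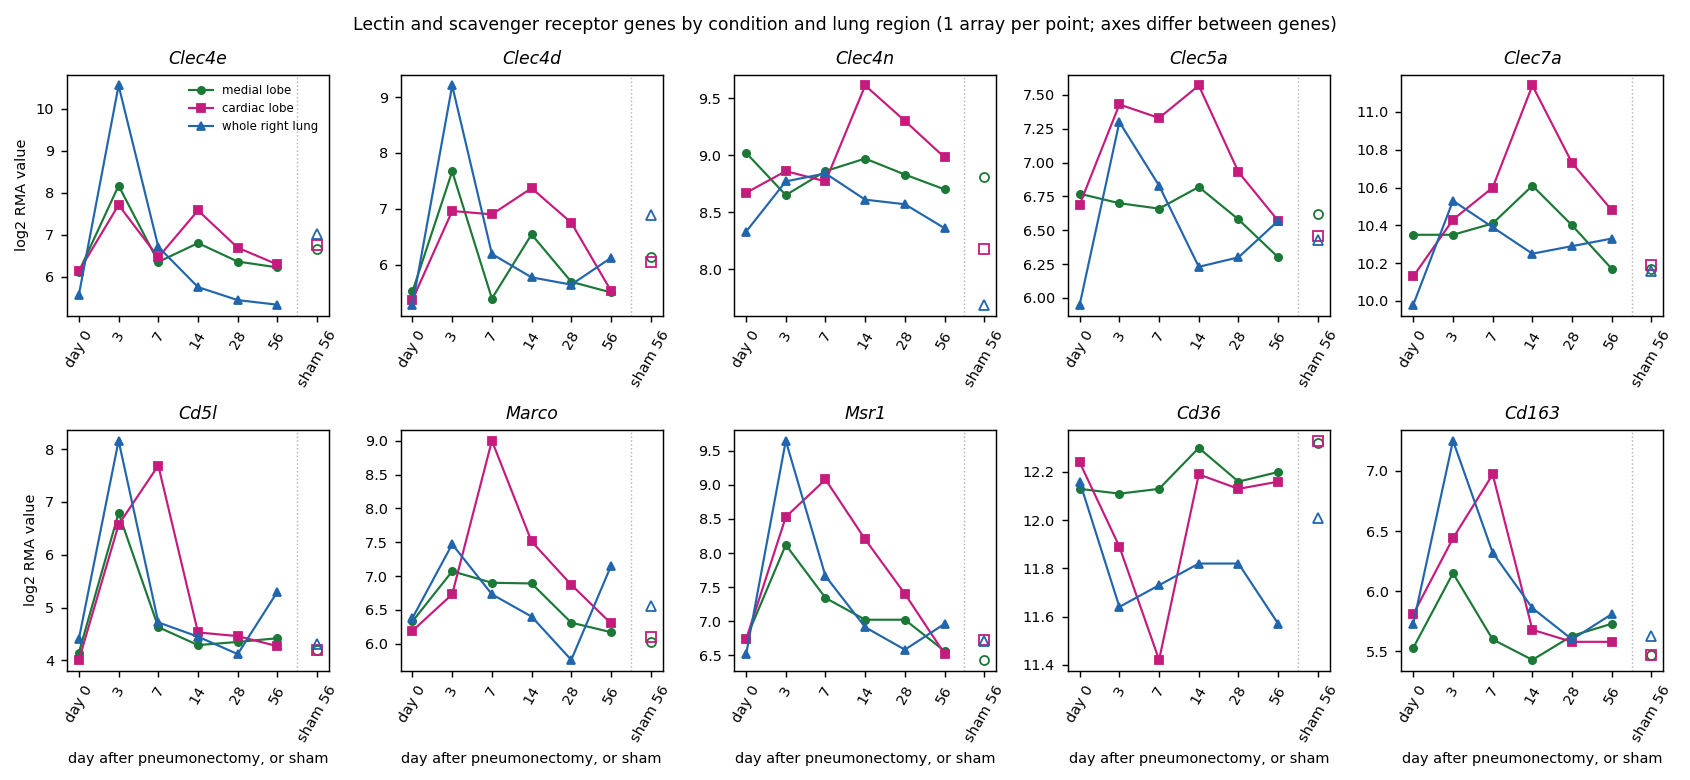
Level of each gene (log2 RMA value, vertical axis with its own scale per gene) by condition, with 1 point per array and days set at equal steps. Lines join the medial lobe (circles), cardiac lobe (squares) and whole right lung (triangles), and open symbols are sham lungs. Clec4e reached 10.56 in the day 3 whole lung, whereas Marco reached its highest value, 9.0, in the day 7 cardiac lobe.

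The remaining lectins had smaller differences at day 3. Clec4n, which binds mannose-rich fungal glycans, had levels of 9.02, 8.67 and 8.33 at day 0 (medial lobe, cardiac lobe and whole lung) and 8.65, 8.86 and 8.77 at day 3, so the groups overlapped and the difference was 0.08 ± 0.22 (SE). Its highest array was the day 14 cardiac lobe (9.61) and its lowest the sham whole lung (7.69). Clec7a was at 10.35, 10.13 and 9.98 at day 0 and at 10.35, 10.43 and 10.53 at day 3, a difference of 0.28 ± 0.14 (SE) with the groups in contact in the medial lobe. It too was highest in the day 14 cardiac lobe, at 11.14. Clec4n and Clec7a correlated at r = 0.75 over 21 arrays and at r = 0.75 over the 18 without day 3, and both resembled Cd200r1, an inhibitory receptor of myeloid cells (r = 0.88 and 0.83).

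Clec5a, a receptor that pairs with Tyrobp, stood at 6.77, 6.69 and 5.95 at day 0 and at 6.70, 7.43 and 7.30 at day 3. The groups overlapped through the medial lobe, and the difference was 0.68 ± 0.24 (SE), or 1.60-fold. In the medial lobe its levels over the 7 conditions stayed between 6.30 and 6.82, whereas the cardiac lobe ran from 6.46 in sham to 7.57 at day 14. Its nearest genes were Lilr4b and Lilrb4a, near-identical copies whose probe sets may not tell them apart, and Rap2b (r = 0.88, 0.87 and 0.87). For Clec7a the nearest were Ccl6, Ctsd and Cd200r1 (r = 0.88, 0.84 and 0.83), and for Clec4n they were Cd200r1, Olr1 and Gab2 (r = 0.88, 0.83 and 0.77).

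Cd5l, Msr1, Cd163 and, less closely, Marco formed a second pattern, with a high at day 3 and, in the cardiac lobe, a higher one at day 7. The pattern is a description of those arrays, and Msr1 also moved with lectins. Over 21 arrays Msr1 correlated at r = 0.85 with Clec5a and 0.83 with Clec4d, against 0.78 with Marco. Cd5l (AIM) is a secreted protein of macrophages with scavenger cysteine-rich domains, and Cd163 takes up complexes of haemoglobin and haptoglobin. The windows before their starts are printed as a pair with similar courses (r = 0.93 over 21 arrays) but unlike letters, since Cd5l has a PU.1 match at -66, in capitals, and Cd163 has none of the 3 motifs. They lie at chr3:87357631-87357880 and chr6:124304401-124304650, both on the plus strand (RefSeq, GRCm38.p6).
Cd5l: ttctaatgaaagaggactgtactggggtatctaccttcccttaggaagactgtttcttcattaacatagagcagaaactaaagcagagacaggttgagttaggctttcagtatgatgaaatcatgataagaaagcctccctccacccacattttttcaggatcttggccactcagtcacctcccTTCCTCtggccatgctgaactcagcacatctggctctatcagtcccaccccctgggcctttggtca
Cd163: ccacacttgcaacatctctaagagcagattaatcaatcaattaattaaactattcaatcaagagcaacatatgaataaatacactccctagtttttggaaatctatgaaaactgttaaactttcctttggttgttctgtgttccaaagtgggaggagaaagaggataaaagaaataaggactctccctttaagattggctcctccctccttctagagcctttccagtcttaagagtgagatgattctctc

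Cd5l was at 4.15 in the medial lobe, 4.01 in the cardiac lobe and 4.41 in the whole lung at day 0, and at 6.79, 6.57 and 8.16 at day 3. The groups lay more than 2 log2 units apart, and the difference was 2.99 ± 0.57 (SE), or 7.92-fold. The table holds no detection calls, so whether the day 0 values lie above background is not known, and the fold is uncertain to that extent. At day 7 the cardiac lobe was at 7.69, whereas the medial lobe (4.63) and the whole lung (4.72) were near day 0. From day 14 on, all arrays lay between 4.12 and 4.53 apart from the day 56 pneumonectomy whole lung at 5.30, which is the second array that stood apart. Its nearest genes were Padi4, Kcnip1 and C1qa, the last a complement subunit made by macrophages (each r = 0.97).

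Msr1, the class A scavenger receptor for modified lipoproteins, was at 6.74, 6.73 and 6.51 at day 0 and at 8.12, 8.53 and 9.65 at day 3. The difference was 2.10 ± 0.38 (SE), or 4.30-fold, and 1.57 without the day 3 whole lung. It remained above day 0 in all regions at day 7 (7.34, 9.08 and 7.66), day 14 (7.02, 8.20 and 6.91) and day 28 (7.02, 7.40 and 6.58). The nearest genes were Gda, the chemokine Ccl9 and the amino acid transporter Slc7a8 (r = 0.97, 0.96 and 0.96).

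Cd163 was at 5.53, 5.81 and 5.73 at day 0 and at 6.15, 6.44 and 7.25 at day 3, without overlap and with a difference of 0.92 ± 0.23 (SE), or 1.90-fold. At day 7 it was at 5.6, 6.97 and 6.32, and from day 14 on between 5.43 and 5.86. Marco, a class A receptor for particles and bacteria, was at 6.33, 6.19 and 6.38 at day 0 and at 7.07, 6.73 and 7.47 at day 3, a difference of 0.79 ± 0.45 (SE), or 1.73-fold. Its level in the day 7 cardiac lobe was 9.0, against 6.90 in the medial lobe and 6.73 in the whole lung. That array was 7.00-fold above day 0 of its region, while no other Marco value exceeded 7.51. The genes nearest to Cd163 were the chemokine Ccl2, Padi4 and Serpinb2 (r = 0.95, 0.94 and 0.94), and those nearest to Marco were Stac2, Cotl1 and Erp29 (r = 0.92, 0.90 and 0.89).

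Cd36, the receptor for long-chain fatty acids, oxidised lipids and thrombospondin, ran opposite to this group. It was at 12.13 in the medial lobe, 12.24 in the cardiac lobe and 12.16 in the whole lung at day 0 and at 12.11, 11.89 and 11.64 at day 3, with a difference of -0.29 ± 0.14 (SE). The medial lobe showed no such dip, with all its values between 12.11 and 12.32. The cardiac lobe was lowest at day 7 (11.42) and back at 12.19 by day 14, whereas the whole lung stayed between 11.57 and 11.82 on every day after pneumonectomy. Cd36 correlated at r = -0.73 with Cd5l, -0.74 with Cd163 and -0.74 with Marco over 21 arrays. Over the 17 arrays without day 3 and without the day 7 cardiac lobe these were -0.64, -0.40 and -0.35. The nearest genes were Itm2b, Prickle2 and Tnfsf10 (each r = 0.95).

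**Figure D2:**
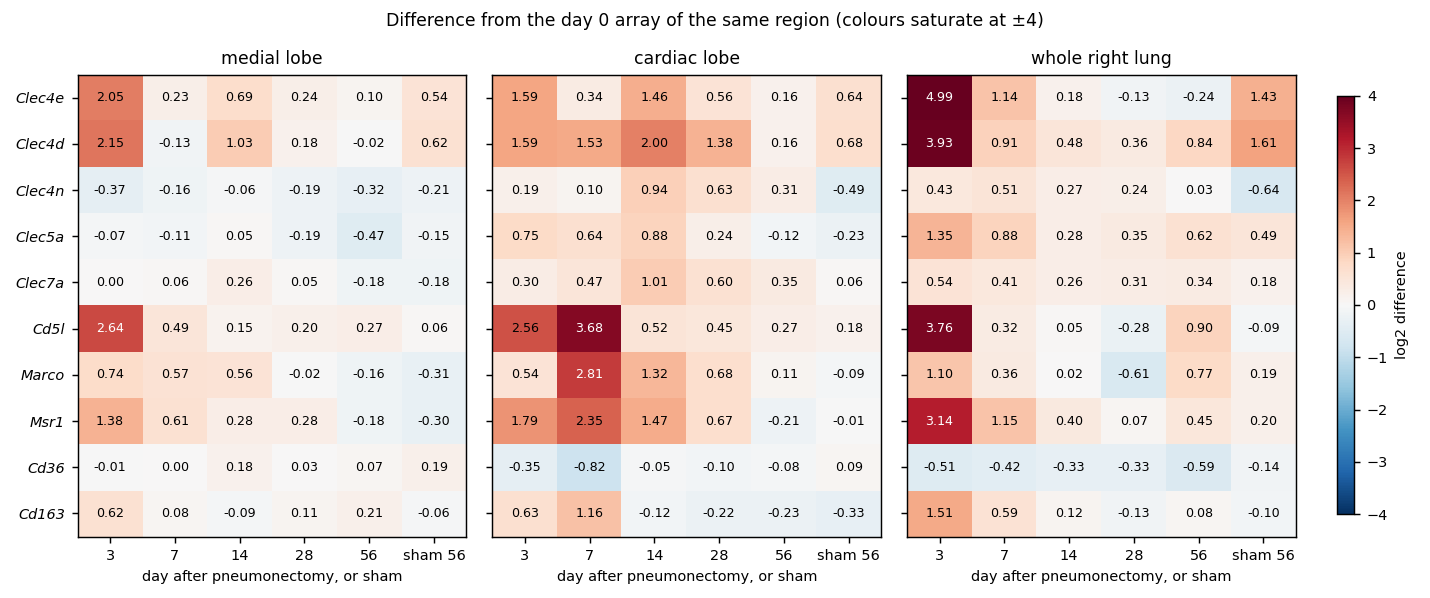
Difference of each array from the day 0 array of the same region (log2, colour and printed value), by gene (rows) and by day after pneumonectomy or sham (columns), with 1 array per cell. In the whole lung 8 of 10 genes had their highest value at day 3, in the medial lobe 6 of 10 and in the cardiac lobe 1 of 10. These counts are descriptions, since day 3 values were treated as used to choose the genes. The shares over all genes were not counted.

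Taken as a group, the genes stood higher at day 3. At that time, 9 of the 10 genes were above and 1 below day 0, with a median difference of 0.86 against 0.01 over all genes, and 6.7% of all genes passed a limma test at an adjusted p under 0.05 (3.97% higher and 2.73% lower). Nothing is read from that count for the group, since it was chosen in view of this comparison. By region the highest condition was day 3 for Clec4e alone in the cardiac lobe, where 4 genes were highest at day 7 (Cd5l, Marco, Msr1 and Cd163) and 4 at day 14 (Clec4d, Clec4n, Clec5a and Clec7a). In the cardiac lobe the first 4 of these all peaked on the array that stood apart. The peak days include the day 0 and day 3 values, so nothing is read from these counts either.

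**Figure D3:**
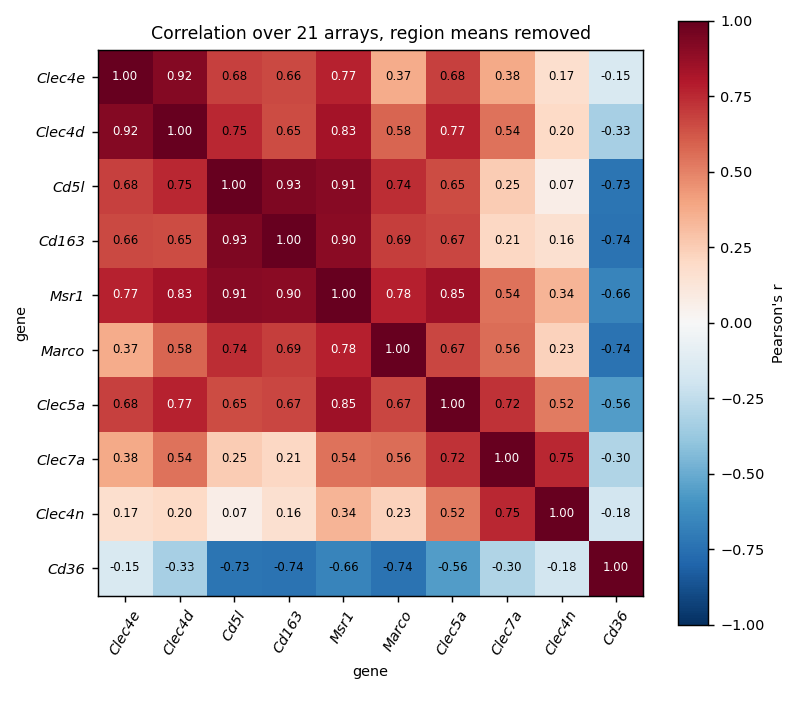
Pearson's r between the genes over 21 arrays after each region's mean was removed (colour and printed value). Clec4e with Clec4d (0.92) and Cd5l with Cd163 (0.93) and Msr1 (0.91) are the closest pairs, and Cd36 is negative with every other gene.

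How the arrays of day 3 and of the day 7 cardiac lobe weigh on these correlations was computed directly. Cd5l and Cd163 correlated at r = 0.93 over 21 arrays, at 0.88 over 18 without day 3 and at 0.34 over 17 when the day 7 cardiac lobe was also left out. For Cd5l and Msr1 the values were 0.91, 0.79 and 0.53. Over the same 17 arrays Msr1 correlated more closely with Clec5a (0.85), Clec7a (0.83) and Marco (0.81) than with Cd5l or Cd163 (0.47). Cd5l and Clec4e correlated at 0.68 with day 3 and at -0.09 without it. For Cd5l and Clec4d the values were 0.75 and 0.33.

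Day 7 after pneumonectomy against sham was the first comparison that could be tested. The sham lungs were those of day 56, so the operation and time since surgery both differ in it. Msr1 was higher at day 7 than in sham, and the other 9 genes did not pass. Msr1 was at 7.34, 9.08 and 7.66 at day 7 and at 6.43, 6.72 and 6.71 in sham (medial lobe, cardiac lobe and whole lung), without overlap. The difference was 1.41 ± 0.38 (SE, n = 3), or 2.65-fold, higher in 3 of 3 regions (limma, Benjamini-Hochberg adjusted p = 0.0491). Over all genes 4.52% passed (2.37% higher and 2.15% lower), so that 1 of 10 is no more than a count near that background. The call sat at the threshold, and was lost when any of 14 of the 21 arrays was left out (adjusted p over all alternatives 0.0174 to 0.276). Without the day 7 cardiac lobe the difference was 0.96 with adjusted p = 0.276, without the sham cardiac lobe 1.29 with 0.197, and with only the 6 arrays compared 1.41 with 0.201.

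The other scavenger genes did not pass in limma. Cd163 differed by 0.78 ± 0.23 (adjusted p = 0.0726), Cd5l by 1.44 ± 0.57 (0.179) and Marco by 1.32 ± 0.45 (0.119), each higher in 3 of 3 regions. Cd36 differed by -0.46 ± 0.14 (adjusted p = 0.0753) and was lower in all regions. Much of this lay in 1 array, since without the day 7 cardiac lobe the values were 0.42 for Cd163, 0.36 for Cd5l, 0.61 for Marco and -0.24 for Cd36. Without the day 7 whole lung, Cd5l (2.07, adjusted p = 0.0398), Marco (1.75, 0.0366) and Cd36 (-0.56, 0.0377) also passed. Without the day 7 medial lobe, Cd163 (1.05, adjusted p = 0.0211) and Cd36 (-0.57, 0.0480) passed, and without the day 3 whole lung Cd163 did (0.78, 0.0406). Over all 19938 genes, 1625 passed without the day 7 whole lung, 755 without the day 7 medial lobe and 856 without the day 3 whole lung. With all arrays 902 did.

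Of the lectins, Clec4n differed by 0.60 ± 0.22 (adjusted p = 0.137), Clec5a by 0.43 ± 0.24 (0.334) and Clec7a by 0.29 ± 0.14 (0.284), each higher in 3 of 3 regions. Clec4e (-0.30 ± 0.59, adjusted p = 0.817) and Clec4d (-0.20 ± 0.50, 0.864) had the opposite sign. Clec4e was lower than sham in 3 of 3 regions, whereas Clec4d was higher than sham in 1 of 3, the cardiac lobe. Without the sham medial lobe Clec4n passed (0.88, adjusted p = 0.0323). The median over the 10 genes was 0.52 against 0.01 over all genes, and 6 of the 10 had an unadjusted p under 0.05, beside 3840 of all 19938 genes.

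**Figure D4:**
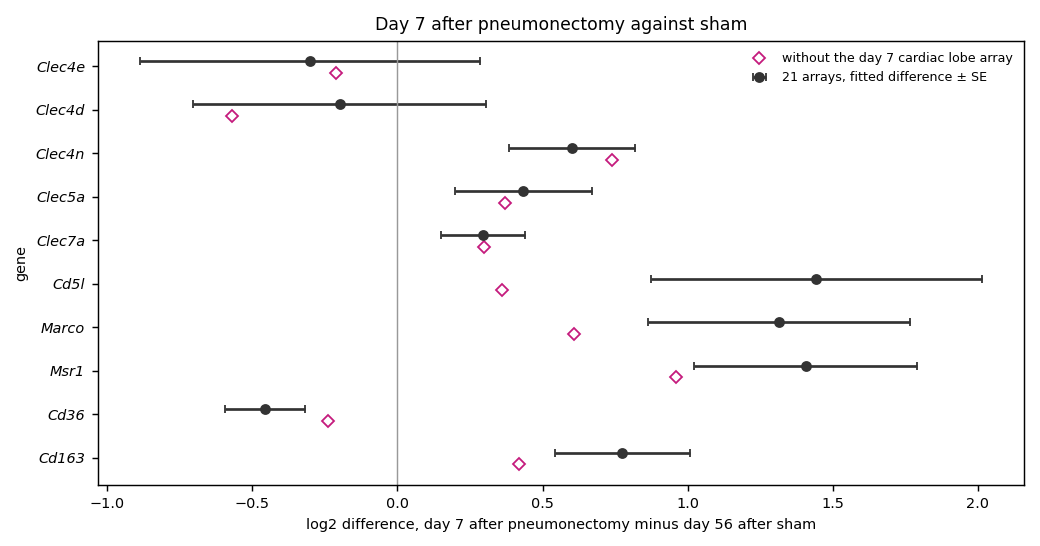
Day 7 after pneumonectomy minus sham at day 56 (log2 difference, horizontal axis) for each gene. Filled circles with bars are fitted differences ± SE from 21 arrays, and open diamonds are the values without the day 7 cardiac lobe array. The diamond lies at 0.36 for Cd5l against 1.44 with all arrays, and at 0.96 against 1.41 for Msr1.

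Of days 14, 28 and 56, only day 56 matched sham in time since surgery. None of the 10 genes passed against sham at day 14, 28 or 56, where 0.0652%, 0.186% and 0.336% of all genes did in limma. At an unadjusted p under 0.05, 2 of the 10 did at day 14, 1 at day 28 and 0 at day 56, against 1081, 1524 and 1630 of all 19938 genes. The largest standardised differences at day 14 were those of Clec4n (0.84 ± 0.22, adjusted p = 0.300) and Clec7a (0.49 ± 0.14, 0.419), both higher in 3 of 3 regions. Without the day 14 cardiac lobe the Clec7a difference was 0.30. At day 28 Clec4n was at 0.68 ± 0.22 (adjusted p = 0.319). At day 56 Clec4e was at -0.86 ± 0.59 (0.737) and Clec4d at -0.65 ± 0.50 (0.769), lower than sham in all regions.

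From day 7 to day 14, Cd5l differed by -1.26 ± 0.57 (adjusted p = 0.382) and Cd163 by -0.64 ± 0.23 (0.271), both lower in 3 of 3 regions, and Cd36 by 0.34 ± 0.14 (0.325). No gene of the 10 passed this limma test, and 3 did at an unadjusted p under 0.05, while 0.727% of all genes passed and 2499 did unadjusted. Without the day 7 cardiac lobe the differences were -0.17 for Cd5l, -0.28 for Cd163 and 0.13 for Cd36.

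The regions differed for 2 genes. Clec4n (0.42 ± 0.12 SE, 1.34-fold, limma adjusted p = 0.0193) and Cd36 (0.30 ± 0.08, 1.23-fold, adjusted p = 0.0112) were higher in the mean of both lobes than in the whole lung. This was a comparison in which 29.1% of all genes passed (20.3% higher in the lobes), so that 2 of 10 lies at the background. The Clec4n call was lost without the day 14 whole lung (0.38, adjusted p = 0.0618) or without the sham whole lung (0.36, 0.0639). In those fits 3860 and 4095 of all genes passed, against 5794 with all arrays. Without the day 7 cardiac lobe Cd5l (-0.41, 0.0467) and Cd163 (-0.31, 0.0176) passed as well, where 8113 of all 19938 genes did. Without the day 3 whole lung Clec4e (0.57, 0.0451) and Clec5a (0.39, 0.0455) also passed, where 5344 of all genes did. Nothing is read from these added calls for the group. Between the cardiac and the medial lobe, 0 of the 10 passed (2 at an unadjusted p under 0.05), with 0.0903% of all genes passing and 1879 unadjusted. The largest difference was that of Msr1 (0.57 ± 0.25, adjusted p = 0.489). Among the listed relatives, 11 of 27 other C-type lectins were higher and 1 lower in the lobes than in the whole lung, and 12 of 30 other scavenger receptors were higher and 2 lower, with Olr1 (0.64 ± 0.13) and Scarb1 (0.62 ± 0.06) in front.

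Whether the early response (days 3 and 7 against day 0 and sham) differed between regions was tested in a model of region and phase. These tests include the day 0 and day 3 arrays, so they are not independent of the choice of the genes. For Clec4e the early levels were 0.87 above control in the medial lobe, 0.64 in the cardiac lobe and 2.35 in the whole lung, and for Cd5l 1.54, 3.03 and 2.08. The difference between the whole lung and the lobes was 1.59 ± 1.10 for Clec4e (adjusted p = 0.996), and that between the cardiac and the medial lobe 1.49 ± 1.13 for Cd5l (0.964). None of the 10 passed either limma test, and 0% of all genes did in each. At an unadjusted p under 0.05, 2 genes of the group passed for the cardiac against the medial lobe (Cd36, -0.53 ± 0.18, and Clec5a, 0.82 ± 0.37) and 1 for the whole lung (Clec4n, 0.68 ± 0.26), beside 868 and 447 of all genes. Without the day 3 cardiac lobe, Cd36 passed (-0.76, adjusted p = 0.0282), where 438 of all genes did.

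The other genes of these pathways were counted from lists drawn up with the day 3 results known, and day 3 against day 0 was read by the same limma test for them. Their counts at day 3, and those of the marker lists further on, are in part set by that choice, and nothing is read from them about the 10 genes. Of 20 genes that C-type lectin signalling is known to induce, 6 were higher at day 3 and 0 lower. They were led by the chemokines Cxcl2 (2.69 ± 0.62, adjusted p = 0.0144), Ccl2 (2.37 ± 0.36, 0.000838) and Ccl3 (2.07 ± 0.52, 0.0242), and by the cytokine Il1b (1.42 ± 0.41, 0.0472). Many other signals induce these genes too. None of 22 measured adaptor and signalling genes passed (0 at an unadjusted p under 0.05), and the one with the smallest p was Fgr, a kinase of myeloid cells (0.45 ± 0.21, adjusted p = 0.256). With sham as the control instead, 1 of these 22 was higher and 0 lower at day 3, and 9 had an unadjusted p under 0.05. Their median difference from sham was 0.25, against 0 over all genes. Of 27 other C-type lectins 1 was higher (Clec4a1, 1.47 ± 0.32, in a family of close relatives) and 1 lower (Cd69, a lymphocyte activation marker, -1.15 ± 0.27).

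Of 30 other scavenger and engulfment receptors, 5 were higher and 2 lower at day 3. They included Scara3 (1.43 ± 0.26), the endotoxin co-receptor Cd14 (0.90 ± 0.23) and Stab1 (0.64 ± 0.18), with Cd5, a lymphocyte receptor, lower (-0.45 ± 0.11). Of 22 regulators and partners 4 were higher and 0 lower, namely the transcription factor Maf (1.48 ± 0.15), haem oxygenase Hmox1 (1.26 ± 0.28), the macrophage growth factor Csf1 (0.49 ± 0.11) and Apoe (0.48 ± 0.12). Over all genes the shares were 3.97% higher and 2.73% lower.

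At day 7 the lists were read against sham, a different control from the day 0 of most counts above, so the numbers are not compared. Scara3 (1.02 ± 0.26, limma adjusted p = 0.0390) was the 1 of 30 scavenger receptors that passed, and Maf (0.92 ± 0.15, 0.00296) the 1 of 22 regulators. Of the other lectins Clec4a2 rose (0.75 ± 0.20), while Clec14a, known from endothelium, and Clec4g, known from sinusoidal endothelium, fell (-0.65 ± 0.16 and -0.42 ± 0.09). None of the 20 output genes passed (5 at an unadjusted p under 0.05), with Ccl2 nearest (1.25 ± 0.36, adjusted p = 0.0587). None of the 22 signalling genes passed (2 unadjusted), with Rela nearest (-0.31 ± 0.10, adjusted p = 0.106). At day 14, 28 and 56 against sham no gene of these 5 lists passed in limma, and 1 to 5 genes per list did unadjusted.

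Marker genes of several cell types moved with the group, and in RNA from whole tissue more cells of a type and more RNA per cell cannot be told apart. Of 10 measured monocyte and interstitial macrophage markers, 6 were higher and 1 lower at day 3 against day 0, among them C1qc (1.71 ± 0.33), C1qa (1.69 ± 0.28), C1qb (1.67 ± 0.22) and Folr2 (1.42 ± 0.23). The summed level of that list was 12.32 to 12.64 at day 0 and 12.78 to 13.48 at day 3, and within day 7 it was 13.09 in the cardiac lobe against 12.44 and 12.37 elsewhere. Cd5l correlated with this sum at r = 0.88 over 21 arrays and 0.75 over 18 without day 3, Cd163 at 0.87 and 0.72 and Msr1 at 0.87 and 0.69. Over the 17 arrays without day 3 and without the day 7 cardiac lobe, these correlations were 0.10 for Cd5l, 0.13 for Cd163 and 0.32 for Msr1. Of 11 measured alveolar macrophage markers 0 were higher and 4 lower at day 3 against day 0, including Siglecf (-0.44 ± 0.11). Against sham, 1 was higher and 1 lower at day 3. The sums of this list were 13.43 to 13.79 at day 0, 13.04 to 13.58 at day 3 and 13.22 to 13.55 in sham. The part of either cell type in the results was not tested.

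A list of serous cavity macrophage markers moved with Msr1 as well (r = 0.96 over 21 arrays, 0.92 without day 3 and 0.86 when the day 7 cardiac lobe was also left out). Its sum was 12.11 to 12.14 at day 0, 13.21 to 13.81 at day 3 and 11.95 to 12.13 in sham. It rested on Prg4 (4.68 ± 0.44), Serpinb2 (4.11 ± 0.60) and Fn1 (1.73 ± 0.22), the 3 of 10 measured genes that were higher at day 3, and mesothelium and other cells also make these. The defining macrophage marker Timd4 ran from 5.39 to 6.96 over the arrays, with a median of 5.67. It was not among the genes that passed at day 3, and its level is not compared with those of other genes. Gata6, which other lung cells also express, was not among the genes that passed. The part of such cells was not tested.

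Clec4e and Clec4d moved with several of these lists. Over 21 arrays Clec4e correlated at r = 0.87 with the monocyte and interstitial macrophage sum, at 0.83 with the pan-leukocyte sum, at 0.79 with the serous cavity sum and at 0.63 with neutrophil markers. For Clec4d these were 0.83, 0.79, 0.79 and 0.73. Over the 18 arrays without day 3 the first 3 of them were 0.26, 0.43 and 0.29 for Clec4e and 0.42, 0.44 and 0.42 for Clec4d, and the neutrophil values were 0.73 and 0.81. The summed level of the neutrophil markers was 11.42 to 11.75 at day 0, 12.06 to 12.81 at day 3, 12.55 and 12.59 in the lobes at day 14 and 13.21 in the sham whole lung, the highest of all arrays. Cd5l correlated with it at r = 0.38 over 21 arrays and 0.09 without day 3. Of the 12 markers only Il1r2 passed at day 3 against day 0 (0.91 ± 0.23), with a median of 0.93 over the list. At day 7 against sham Ltf rose (1.34 ± 0.29) and S100a8 fell (-1.69 ± 0.43), where the sham group includes the array just named. Of the pan-leukocyte list 1 of 10 was higher at day 3 against day 0, the integrin Itgam (2.39 ± 0.43), which neutrophils and monocytes share. Against sham, 4 of these 10 were higher at day 3 and 0 lower. The part of neutrophils in the results was not tested.

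**Figure D5:**
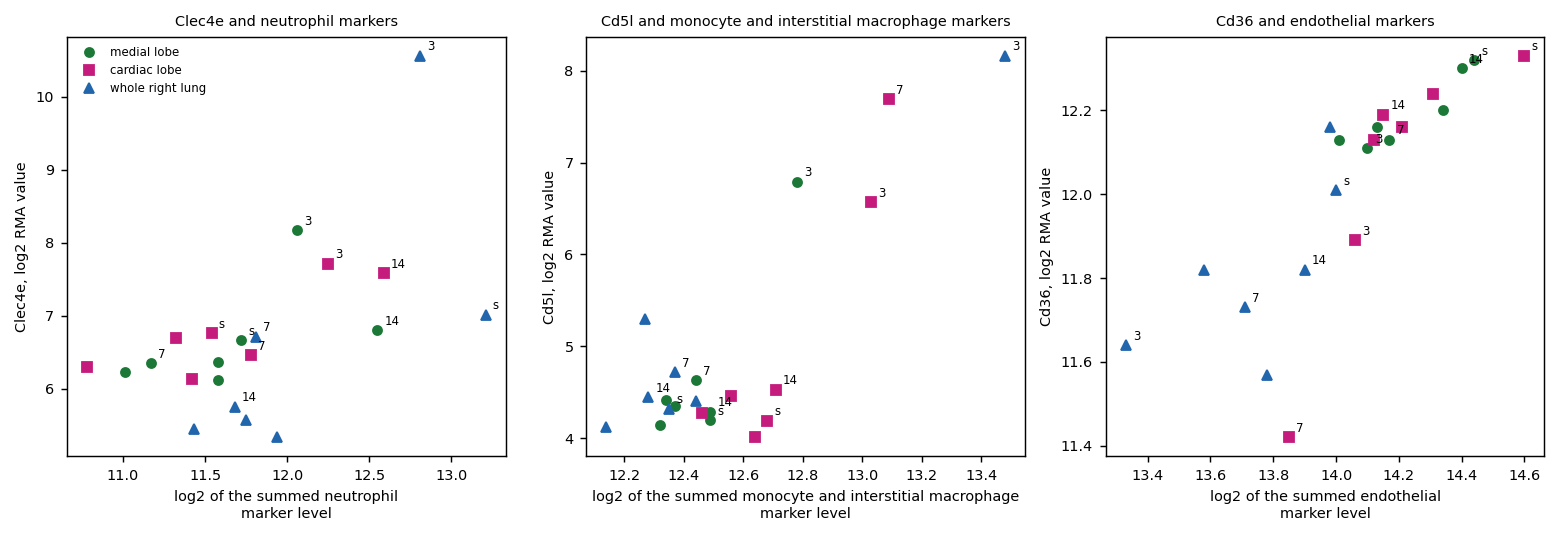
Level of Clec4e, Cd5l and Cd36 (log2 RMA value, vertical axes) against the log2 summed level of neutrophil, monocyte and interstitial macrophage, and endothelial markers (horizontal axes), with 1 point per array and colour and shape by region. Numbers mark days 3, 7 and 14 after pneumonectomy and s marks sham. The sham whole lung has the highest neutrophil sum (13.21) with Clec4e at 7.01, and the day 3 whole lung the highest monocyte sum (13.48) with Cd5l at 8.16.

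Cd36 moved with endothelial markers. Their summed level correlated with Cd36 at r = 0.75 over 21 arrays, 0.75 without day 3 and 0.67 when the day 7 cardiac lobe was also left out. It was 13.98 to 14.31 at day 0, 13.33 to 14.10 at day 3 and 14.00 to 14.60 in sham, with the day 3 whole lung lowest. At day 7 against sham 5 of 12 endothelial markers were lower and 0 higher, including Tek (-0.81 ± 0.18), Robo4 (-0.61 ± 0.15), Cldn5 (-0.60 ± 0.12) and Plvap (-0.58 ± 0.12). With day 0 as the control, 1 was lower and 0 higher at day 7. At day 3, 0 of the 12 passed against day 0, whereas 6 were lower and 0 higher against sham. These counts thus depend on the control. In the lobes against the whole lung 11 of 12 were higher, beside the higher Cd36. Of 9 adipocyte markers, which also include genes of fatty acid handling, 2 were lower at day 3 (Retn, -1.13 ± 0.29, and Cidec, -0.93 ± 0.22). The part of endothelium in the Cd36 values was not tested. Of the 9 lung epithelial markers 1 was lower at day 3 (Hopx, -0.33 ± 0.09), and of 6 markers of other organs 0 passed. Of 8 dendritic cell markers 2 were lower at day 3 against day 0 (Ccr7, -1.05 ± 0.19, and Itgae, -0.38 ± 0.09). Against sham, 0 of them were higher and 0 lower at day 3.

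Clec4n and Clec7a moved with a different list. Over the 18 arrays without day 3, Clec4n correlated with the alveolar macrophage sum at r = 0.83 and Clec7a at 0.79, against 0.61 and 0.56 over all 21. Without the day 7 cardiac lobe as well they were 0.87 and 0.80. Clec5a and Msr1 correlated with that sum at 0.76 and 0.68 without day 3. With the day 7 cardiac lobe also left out, the values were 0.75 for Clec5a, 0.78 for Msr1 and 0.69 for Marco. The remaining genes then lay between -0.38 (Cd36) and 0.42 (Cd163). The alveolar macrophage sum reached its highest value, 14.17, in the day 14 cardiac lobe, the array of the highest Clec4n and Clec7a values. None of these correlations left that array out, so its weight in them is not known. At day 14 against day 7, 3 of 11 alveolar macrophage markers rose, namely Fabp1 (1.35 ± 0.26, limma adjusted p = 0.0289), Krt79 (0.59 ± 0.12, 0.0415) and Siglecf (0.58 ± 0.11, 0.0246). Clec4n differed by 0.24 ± 0.22 and Clec7a by 0.20 ± 0.14 in that comparison and did not pass (adjusted p = 0.650 and 0.568).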

How the data were processed

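The deposited table holds 1 log2 value for each of 35556 probe sets on 21 arrays, made by the authors with RMA (background correction, normalization between arrays and summary of probes), per the submitters' processing notes. The RMA version is not given in the sources used here. This file has no detection calls, so the number of arrays limits the precision.

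Platform annotation named 1 gene for 21789 probe sets, while 1621 had several symbols and 12146 had none. A gene was represented by its probe set with the highest mean, and all 10 genes described had 1 probe set. Cross-hybridisation between relatives was not checked. All arrays and 19938 genes entered a linear model of condition plus region in limma 3.58.1 (R 4.3.3). The early response was fitted in a separate limma model of region and phase, with its own estimate of the spread. Both models were tested on simulated data. The threshold was an adjusted p of 0.05 (Benjamini-Hochberg, over all genes). Errors after ± are standard errors of fitted differences. Fold sizes are 2 to the power of the log2 difference.

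The 10 genes, 5 pathway lists, 10 marker lists, tests and alternatives were chosen with earlier results of these data known. All 10 genes were named in the report, and from each list up to 4 passing genes by size, or the one with the smallest p. Replicates 1, 2 and 3 are the medial lobe, cardiac lobe and whole lung. Summed marker levels are log2 of summed linear values. Promoter windows came from RefSeq (GRCm38.p6), and the array table names no genome build. Clec4n and Msr1 had no promoter entry.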

Additional observations from a re-analysis of the deposited data

How the results depend on the processing

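At day 7 against sham, 1 of the 10 genes passed (Msr1). The count was 0 without the region term, 0 with trend and robust moderation, 0 with only the arrays compared and 0 without the 2 arrays that stood apart, and it ranged from 0 to 4 when each array was left out in turn. It was 4 without the day 7 whole lung, 3 without the day 7 medial lobe and 2 without the day 3 whole lung. In those fits 1625, 755 and 856 of all genes passed, in that order. For both lobes against the whole lung the count was 2, and 1 to 4 with arrays left out. Over all genes 5794 passed in that comparison, and 3860 to 8113 with arrays left out. For the early response of the cardiac against the medial lobe the count of the 10 genes was 0, and 0 to 1 with arrays left out. Over all genes 0 passed there, and 0 to 438 with arrays left out. The counts of the 10 genes in the other tests were 0 in every alternative run. Over all genes, 902 passed at day 7 against sham, but 287 without the region term, 87 with only the arrays compared and 262 to 1625 with arrays left out. At day 14, 28 and 56 against sham 13, 37 and 67 passed, against 0, 14 and 30 without the region term and 60, 126 and 116 without the 2 arrays. From day 7 to 14, 145 passed, against 15 without the region term, 37 in the lobes alone and 0 with only the arrays compared. For the cardiac against the medial lobe 18 passed, against 0 in the lobes alone and 40 without the 2 arrays. No fitted difference of a gene reversed its sign past its threshold, but a tested difference could do so only if it passed in either fit. Signs of differences that did not pass did change. Without the day 7 cardiac lobe, Marco went from 0.91 to -0.23 in the early response of the cardiac against the medial lobe. From day 7 to 14 it went from -0.61 to 0.09. Without the day 7 medial lobe, Clec4d went from 0.52 to -0.62 in that early response. In the model of condition plus region, the region term is a block on region. The labels give no animal or replicate numbers by which arrays could be paired further.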
